A study of Homo sapiens with 36 samples.

Results

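The proteasome is the protease complex that degrades ubiquitin-tagged proteins, and 41 of its genes and regulators were followed here among the 58243 genes of a count table from pancreatic ductal adenocarcinoma cell lines. The rule names the members by symbol and uses no measured value, although it was set with earlier results of these data known, and all 41 were found in the table and passed the filter on low counts in every line. They comprise 7 genes of the alpha ring and 7 of the beta ring of the core particle, 6 ATPases and 3 other subunits of the base of the regulatory cap, and 8 subunits of its lid. The remainder are 2 immunoproteasome beta subunits, 4 genes of other activators, 3 assembly factors and the transcription factor NFE2L1. The 36 RNA sequencing libraries came from the established human lines PANC-1, BxPC-3 and MIA PaCa-2, each with 4 treatments and 3 libraries per treatment. Cells received the vehicle DMSO, the synthetic liver X receptor (LXR) agonist GW3965, or the code-named compounds 1E5 or 3A4, which the labels describe as inverse agonists of LXR. GW3965, 1E5 and 3A4 were each applied at 10 µM, all cells were collected after 48 h, and no genetic change was labelled in any group. BxPC-3 grew in RPMI and both other lines grew in DMEM, with 10% serum throughout, so line and medium cannot be told apart in comparisons with BxPC-3. The labels number biological replicates without stating that they were separate cultures, so the p-values measure only the spread between these libraries, which may be technical.

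Proteins marked with ubiquitin chains are bound by the regulatory cap, stripped of ubiquitin by the lid enzyme PSMD14, unfolded by the ring of PSMC ATPases and cut inside the core by the beta subunits PSMB5, PSMB6 and PSMB7. Interferon-inducible PSMB8 and PSMB10 replace PSMB5 and PSMB7 in the immunoproteasome, and PSME1 with PSME2, PSME3, or PSME4 cap the core in place of the ATPase cap. When proteasome activity is short, NFE2L1 escapes its own degradation, is processed at the endoplasmic reticulum and raises transcription of proteasome genes through antioxidant response elements, a response known as the bounce-back. Proteasome inhibitors, which bind the cutting sites of the core, have been tested in pancreatic cancer cells.

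Promoter sequences are shown for 4 members because they carry the letters of the element bound by NFE2L1 and its relatives, while the transcripts of these genes went in different directions. RefSeq promoter entries on GRCh38 held 45 starts for 36 members, of which the 250 bases before each start were searched on both strands. The core of the antioxidant response element, TGACNNNGC, was found in 10 of the 45 member promoters (22.2%), against 10.9% of all 35116 promoters. A match of letters is a description and not a measured binding site. The matched bases are in capitals, and each sequence is written 5′ to 3′ on the strand of its gene, ending at the base before the start.
PSMB3, plus strand, chr17:38752491-38752740, match from position -104: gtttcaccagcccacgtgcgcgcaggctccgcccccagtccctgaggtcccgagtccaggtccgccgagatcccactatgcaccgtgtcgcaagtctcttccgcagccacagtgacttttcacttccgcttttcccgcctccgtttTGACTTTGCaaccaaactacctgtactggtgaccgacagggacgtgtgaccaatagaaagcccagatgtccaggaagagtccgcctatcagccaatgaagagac
PSMD3, plus strand, chr17:39980557-39980806, match from position -37: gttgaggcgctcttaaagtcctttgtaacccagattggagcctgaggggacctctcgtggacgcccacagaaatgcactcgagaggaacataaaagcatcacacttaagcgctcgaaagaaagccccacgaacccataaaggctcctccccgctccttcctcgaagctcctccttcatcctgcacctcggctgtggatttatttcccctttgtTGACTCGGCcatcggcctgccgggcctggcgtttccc
PSMD12, minus strand, chr17:67366578-67366827, match from position -165: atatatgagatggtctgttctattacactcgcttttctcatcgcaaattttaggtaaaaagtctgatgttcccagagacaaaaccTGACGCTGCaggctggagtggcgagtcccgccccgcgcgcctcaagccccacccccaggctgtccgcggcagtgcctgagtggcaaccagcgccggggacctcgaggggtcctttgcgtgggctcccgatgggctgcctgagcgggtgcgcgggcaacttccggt
PSME4, minus strand, chr2:53970994-53971243, match from position -34: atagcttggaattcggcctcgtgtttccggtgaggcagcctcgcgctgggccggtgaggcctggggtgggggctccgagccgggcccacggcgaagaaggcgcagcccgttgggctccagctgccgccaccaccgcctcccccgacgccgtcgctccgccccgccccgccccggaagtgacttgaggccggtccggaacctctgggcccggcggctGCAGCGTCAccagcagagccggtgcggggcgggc
The core was also found upstream of PSMA4, PSMC5, PSME1, PSME2, PSMG1 and PSMG2. The GC box GGGCGG stood in 30 of the 45 (66.7%, against 42.6% of all promoters), the NF-Y box CCAAT in 17 (37.8%, against 32%) and the AP-1 site TGAGTCA in 2 (4.44%, against 4.2%). The core of the antioxidant response element was not among the letters of the NFE2L1 and POMP entries.

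Libraries of BxPC-3 held 19605935 to 25888304 counts and those of PANC-1 14960970 to 26026684. MIA PaCa-2 libraries ranged from 2701393 to 25503827, with 3609582 to 10996848 in DMSO and 23675670 to 25503827 with 1E5, so depth differed with treatment in that line. Mitochondrial transcripts made up 7.52% to 7.58% of counts in MIA PaCa-2 with DMSO and 1.49% to 2.86% with 1E5. In PANC-1 they made up 6% to 7.23% with DMSO and 2.69%, 6.59% and 3.91% with 1E5, and their part in the results of either line was not tested. Values are counts per 1000000 counts (CPM) after TMM scaling, log2 fold changes carry their standard error (SE), and a gene is called at an adjusted p under 0.05 in edgeR's quasi-likelihood test. CPM is a share of a library, so fewer cells of a type and less RNA per cell cannot be told apart. The ductal label matched only in part: 6 epithelial markers summed to 5523 to 7167 CPM in BxPC-3, to 746.9 to 4880 CPM in PANC-1 and to 544.2 to 1626 CPM in MIA PaCa-2. EPCAM and CDH1 stayed under 1 CPM in every MIA PaCa-2 library, and the leukocyte marker PTPRC stayed under 1 CPM in every library of the 3 lines. Summed over a list, 4 leukocyte markers reached at most 18.6 CPM, 3 endothelial markers 25.0 CPM, 5 fibroblast markers 240.0 CPM and 3 acinar markers 4.75 CPM in any library. Replicate 2 held the members lower than the other 2 libraries in all 4 groups of BxPC-3 (median log2 difference -0.16 to -0.25) and in PANC-1 with DMSO, GW3965 and 3A4 (-0.12 to -0.27). With 1E5 in PANC-1, replicates 2 and 3 both stood at -0.08. In MIA PaCa-2 replicate 1 held the members higher than the other 2 libraries with 1E5 (0.21) and with 3A4 (0.16). Its DMSO libraries stood at -0.02 to 0.03.

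**Figure D1:**
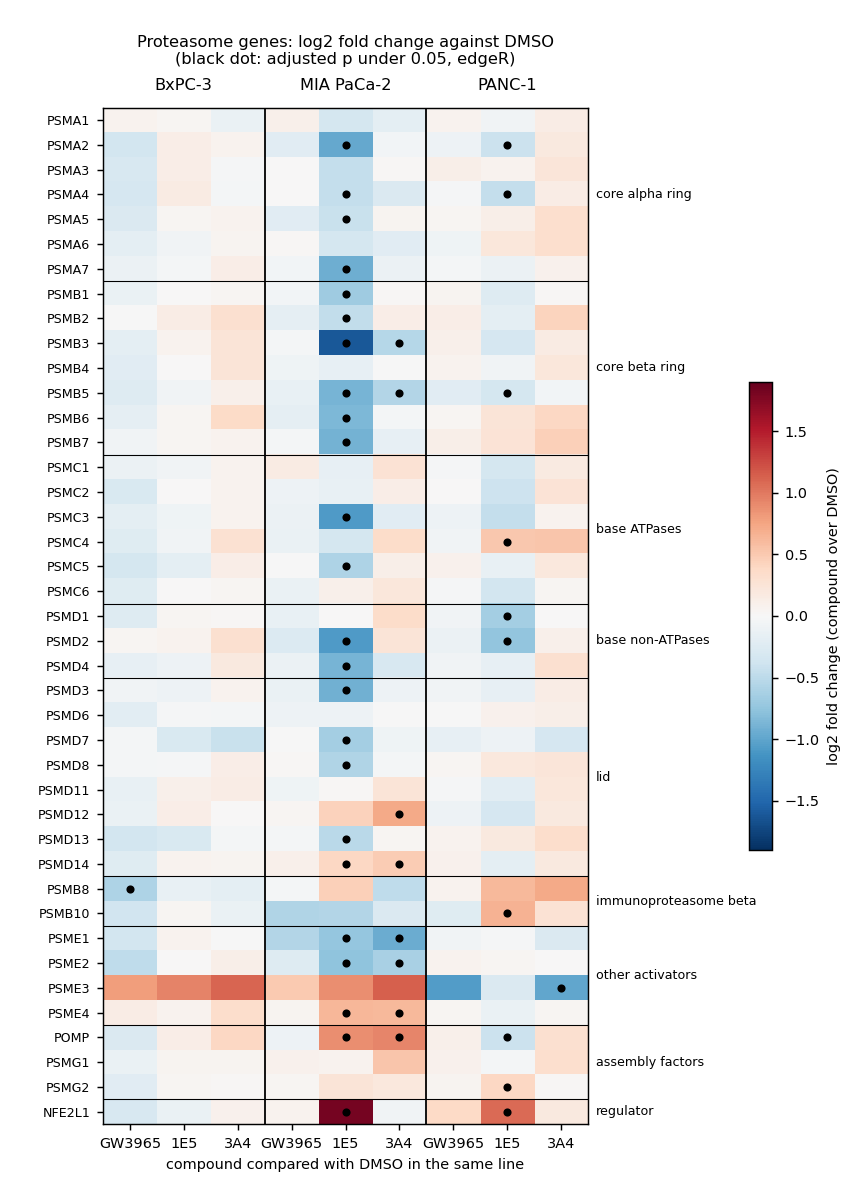
Log2 fold change of each of the 41 members (rows, grouped by role) for each compound against DMSO in each line (columns), with a black dot where edgeR's adjusted p was under 0.05. The 1E5 column of MIA PaCa-2 carries 24 dots, 20 of them on genes that fell, against 10 dots in PANC-1 and none in BxPC-3.

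With 1E5 most genes of the core particle fell in MIA PaCa-2 while their regulator NFE2L1 rose. In that line 20 members fell and 4 rose, against 23.4% of all 16254 genes tested that fell and 23.6% that rose. The members' median log2 fold change was -0.46 and that of all genes 0.05. The 30 core and cap subunits other than PSMC4 together held 6536, 6655 and 6328 CPM with DMSO, while their sums with 1E5 were 4729, 4236 and 4195 CPM. Groups did not overlap for 24 members in the lower direction and 6 in the higher, where the shares over all genes were 28.7% and 31.7%.

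The beta ring, which holds the cutting sites, had 6 of its 7 genes called lower with 1E5 in MIA PaCa-2 (median -0.85), and the alpha ring, which forms the gate, had 4 of 7 (median -0.46). PSMB3, a structural beta subunit, stood at 298.3, 263.5 and 327.5 CPM with DMSO and at 107.0, 96.7 and 88.1 CPM with 1E5. The groups lay far apart, and the fall of 1.61 ± 0.160 on the log2 scale was the deepest among the members (adjusted p = 8.72e-06). PSMB5, the chymotrypsin-like subunit that clinical inhibitors bind, stood at 196.1, 192.1 and 200.5 CPM with DMSO and at 116.9, 98.5 and 101.1 CPM with 1E5. Its groups were apart by far more than their spread (log2 fold change -0.89 ± 0.131, adjusted p = 0.000147). PSMB6 (-0.85) and PSMB7 (-0.90), the caspase-like and trypsin-like subunits, fell as well, as did PSMB1 (-0.68) and PSMB2 (-0.47), while PSMB4 (-0.15) was not called. In the alpha ring PSMA2 (-0.97), PSMA7 (-0.93), PSMA4 (-0.46) and PSMA5 (-0.42) fell. PSMA3, another alpha subunit, stood at 105.8, 116.7 and 150.0 CPM with DMSO, 118.2, 108.1 and 145.8 CPM with GW3965, 105.4, 79.0 and 85.9 CPM with 1E5 and 139.6, 132.4 and 104.6 CPM with 3A4. Its log2 fold change with 1E5, -0.46 ± 0.179, missed the threshold (adjusted p = 0.0502).

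The regulatory cap was less uniform. PSMC3, an ATPase of the base, stood at 165.0, 153.2 and 127.4 CPM with DMSO in MIA PaCa-2 and at 79.1, 66.3 and 65.5 CPM with 1E5. The groups did not overlap, and PSMC3 fell by 1.08 ± 0.164 on the log2 scale (adjusted p = 0.000184). PSMD2, the large base subunit that docks ubiquitin shuttle proteins, stood at 556.9, 562.3 and 473.8 CPM with DMSO and at 253.7, 282.5 and 221.8 CPM with 1E5. All 3 libraries with 1E5 lay far under all 3 with DMSO (log2 fold change -1.07 ± 0.154, adjusted p = 0.000128). PSMC5 (-0.58) and the ubiquitin receptor PSMD4 (-0.89) also fell, and PSMC1, PSMC2, PSMC4, PSMC6 and PSMD1 were not called (-0.34 to 0.09). PSMC1 is uncertain in any comparison, since counts assigned to its pseudogenes came to 89.5% of its own and 75.8% of its exon bases overlap NRDE2 on the other strand. PSMC5 (19.5%) and PSMD7 (30.7%) overlap opposite genes as well. In the lid PSMD3 (-0.91), PSMD7 (-0.65), PSMD8 (-0.57) and PSMD13 (-0.51) fell. PSMD14, the deubiquitinase of the lid, went the other way. It stood at 175.5, 197.5 and 172.6 CPM with DMSO, 192.5, 211.5 and 179.6 CPM with GW3965 and 273.9, 213.3 and 229.4 CPM with 1E5, and rose by 0.39 ± 0.131 on the log2 scale with 1E5 (adjusted p = 0.0257). PSMD11, the lid subunit that clamps the cap to the core, stood at 156.0, 156.4 and 155.8 CPM with DMSO and 159.0, 155.8 and 159.1 CPM with 1E5. These libraries were almost level (log2 fold change 0.02, 95% interval -0.30 to 0.34).

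NFE2L1 and the assembly factor POMP were among the members that rose with 1E5 in MIA PaCa-2. NFE2L1 stood at 107.7, 104.8 and 177.3 CPM with DMSO, 196.0, 85.4 and 123.5 CPM with GW3965, 491.5, 440.2 and 442.5 CPM with 1E5 and 116.1, 119.0 and 136.0 CPM with 3A4. The 1E5 libraries stood alone above the other 9, a 3.54-fold rise over DMSO (log2 fold change 1.82 ± 0.270, adjusted p = 0.000154). POMP, which guides beta subunits onto the growing core, stood at 55.9, 60.6 and 58.3 CPM with DMSO, 56.7, 59.0 and 47.6 CPM with GW3965, 118.5, 106.1 and 99.7 CPM with 1E5 and 78.2, 160.3 and 93.3 CPM with 3A4. With 1E5 it rose by 0.89 ± 0.220 (adjusted p = 0.00512) although 6 of the 7 beta genes it assembles fell. PSMG1 and PSMG2 form the chaperone pair of the alpha ring. PSMG1 held 59.9, 68.4 and 60.9 CPM with DMSO, 75.6, 54.6 and 70.6 CPM with GW3965, 75.7, 66.3 and 55.2 CPM with 1E5 and 95.8, 113.3 and 65.4 CPM with 3A4. PSMG2 held 47.8, 57.5 and 56.3 CPM with DMSO, 59.7, 48.3 and 57.9 CPM with GW3965, 63.6, 58.3 and 70.0 CPM with 1E5 and 54.3, 73.1 and 57.5 CPM with 3A4. Neither was called by edgeR in MIA PaCa-2 with any compound, and DESeq2 called PSMG1 higher with 3A4 (adjusted p = 0.0492).

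The activators split in MIA PaCa-2. PSME1, a subunit of the interferon-inducible activator PA28, stood at 113.3, 109.4 and 125.6 CPM with DMSO, 82.1, 70.8 and 85.9 CPM with GW3965, 72.4, 61.1 and 76.9 CPM with 1E5 and 63.1, 58.4 and 60.1 CPM with 3A4. All 9 ligand libraries lay under the 3 DMSO libraries. PSME1 fell by 0.73 ± 0.131 with 1E5 (adjusted p = 0.000652), and its change with GW3965, -0.55 ± 0.133, was not called (adjusted p = 0.135). Its partner PSME2 stood at 116.5, 97.0 and 126.8 CPM with DMSO, 93.1, 95.3 and 97.8 CPM with GW3965, 79.2, 57.5 and 64.5 CPM with 1E5 and 94.9, 61.5 and 65.7 CPM with 3A4. It fell by 0.76 ± 0.181 with 1E5 (adjusted p = 0.00432). PSME4, the activator PA200, moved upward instead. It stood at 90.5, 90.3 and 81.5 CPM with DMSO, 94.7, 93.4 and 82.9 CPM with GW3965, 138.0, 138.8 and 128.4 CPM with 1E5 and 105.2, 175.3 and 123.1 CPM with 3A4, and rose by 0.63 ± 0.167 with 1E5 (adjusted p = 0.00797).

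Of the 24 calls with 1E5 in MIA PaCa-2, 18 were kept under every alternative and with each single library left out, NFE2L1, POMP, PSMB3, PSMB5, PSMC3 and PSMD2 among them. The 6 others lost the call with some library left out. These were PSMA4 without 1E5 replicate 2 or DMSO replicate 3 (highest adjusted p 0.06), PSMA5 without DMSO replicate 1 or 1E5 replicate 2 or 3 (0.101), and PSMB2 without DMSO replicate 1 or 2 or 1E5 replicate 2 or 3 (0.136). They also included PSMC5 without DMSO replicate 1 or 2 or 1E5 replicate 3 (0.0688), PSMD13 without replicate 2 or 3 of either group (0.0695) and PSMD14 without DMSO replicate 1 or 3 or 1E5 replicate 1 (0.114).

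**Figure D2:**
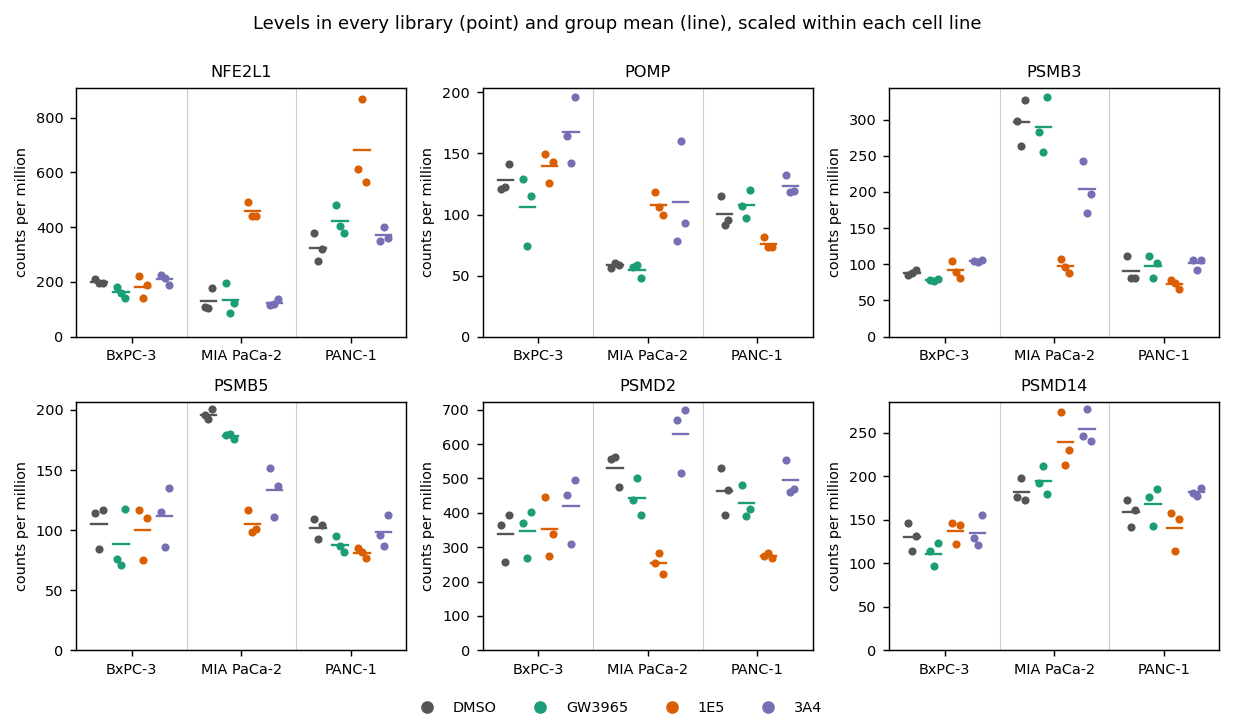
CPM of NFE2L1, POMP, PSMB3, PSMB5, PSMD2 and PSMD14 in every library (points) with the group mean (line), by line and treatment, scaled within each line. In MIA PaCa-2 the 1E5 libraries of NFE2L1 lie at 440.2 to 491.5 CPM and those of PSMB3 at 88.1 to 107.0 CPM, each outside the range of the DMSO libraries.

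PANC-1 shared the rise of NFE2L1 with 1E5 and showed fewer calls among the subunits. There 4 members rose and 6 fell, against 19.7% and 19.3% of all 18544 genes tested, with a median log2 fold change of -0.12 against 0.02 over all genes. NFE2L1 stood at 377.6, 277.5 and 318.8 CPM with DMSO, 481.0, 405.0 and 379.8 CPM with GW3965, 614.3, 870.4 and 563.9 CPM with 1E5 and 350.3, 400.4 and 360.3 CPM with 3A4. The 1E5 libraries stood above all others of the line, and NFE2L1 rose 2.10-fold over DMSO (log2 fold change 1.07 ± 0.174, adjusted p = 0.000621). PSMD2 stood at 530.9, 393.3 and 466.8 CPM with DMSO and at 273.3, 284.0 and 268.5 CPM with 1E5. It fell by 0.75 ± 0.130 (adjusted p = 0.000937), and the 1E5 libraries lay close together under the DMSO range. PSMD1, the other large scaffold of the base, stood at 262.9, 201.3 and 255.6 CPM with DMSO and at 166.5, 138.5 and 158.3 CPM with 1E5, and fell by 0.64 ± 0.135 (adjusted p = 0.0033). These 3 calls were kept under every alternative and with each single library left out. That includes 1E5 replicate 2, which stood apart from the other 1E5 libraries of PANC-1 in its share of mitochondrial counts and in its TMM factor (0.866, against 1.059 for each of the others).

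The other 7 calls with 1E5 in PANC-1 were each lost in some of the fits with a library left out. PSMC4 stood at 2042, 1544 and 1763 CPM with DMSO, 1901, 1516 and 1704 CPM with GW3965, 3111, 2078 and 2450 CPM with 1E5 and 2807, 2337 and 2548 CPM with 3A4. It rose by 0.51 ± 0.161 with 1E5 (adjusted p = 0.0253), and the call was lost without 1E5 replicate 1 or DMSO replicate 2 or 3 (highest adjusted p 0.107). POMP stood at 115.0, 91.6 and 95.3 CPM with DMSO, 106.7, 97.4 and 119.8 CPM with GW3965, 81.5, 73.0 and 73.4 CPM with 1E5 and 132.7, 118.6 and 118.9 CPM with 3A4. It fell by 0.41 ± 0.117 with 1E5 (adjusted p = 0.0171; lost without DMSO replicate 1 or 1E5 replicate 3, highest adjusted p 0.0721), the direction opposite to that in MIA PaCa-2. PSMB5 stood at 108.9, 92.7 and 104.7 CPM with DMSO, 95.2, 87.2 and 81.6 CPM with GW3965, 85.4, 82.0 and 76.5 CPM with 1E5 and 96.0, 86.9 and 112.6 CPM with 3A4. Its fall of 0.33 ± 0.116 with 1E5 (adjusted p = 0.043) was kept only without DMSO replicate 2 (highest adjusted p 0.127). PSMA4 stood at 213.1, 166.8 and 183.9 CPM with DMSO and 163.4, 122.9 and 125.8 CPM with 1E5. PSMA4 (-0.45, adjusted p = 0.0393) lost its call without DMSO replicate 1 or 3 or 1E5 replicate 2 or 3 (0.138), and PSMA2 (-0.41, adjusted p = 0.0234) without DMSO replicate 1 or 3 or 1E5 replicate 3 (0.0889).

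Among the assembly factors of PANC-1, PSMG2 stood at 34.4, 31.8 and 29.3 CPM with DMSO, 36.7, 30.9 and 31.2 CPM with GW3965, 39.6, 46.1 and 39.9 CPM with 1E5 and 32.0, 32.4 and 32.7 CPM with 3A4. PSMG2 rose by 0.39 ± 0.113 with 1E5 (adjusted p = 0.0167), and the call was lost without DMSO replicate 2 or 3 (highest adjusted p 0.0764). PSMG1, its partner in the chaperone pair, stood at 52.0, 36.9 and 37.8 CPM with DMSO, 47.1, 40.4 and 45.8 CPM with GW3965, 52.7, 26.9 and 44.6 CPM with 1E5 and 55.9, 48.2 and 54.2 CPM with 3A4, with overlapping groups. PSMA3 held 64.7, 54.0 and 57.8 CPM with DMSO, 62.1, 57.0 and 70.7 CPM with GW3965, 65.7, 56.0 and 63.1 CPM with 1E5 and 70.6, 62.3 and 74.0 CPM with 3A4. No lid gene was called with 1E5 in PANC-1. PSMD14 there held 173.1, 141.8 and 161.6 CPM with DMSO, 175.5, 143.3 and 185.3 CPM with GW3965, 157.3, 113.9 and 150.7 CPM with 1E5 and 180.3, 177.1 and 186.6 CPM with 3A4. PSMD11 held 248.2, 163.8 and 210.2 CPM with DMSO, 216.2, 187.5 and 208.8 CPM with GW3965, 203.2, 161.0 and 178.4 CPM with 1E5 and 253.0, 215.3 and 254.4 CPM with 3A4. PSMD12, a scaffold of the lid, held 75.8, 68.3 and 78.6 CPM with DMSO, 70.0, 64.0 and 74.4 CPM with GW3965, 75.8, 39.3 and 63.4 CPM with 1E5 and 91.6, 77.6 and 84.8 CPM with 3A4. The lowest of these PSMD12 values was that of 1E5 replicate 2. PSME4 held 138.5, 156.8 and 162.2 CPM with DMSO, 165.6, 159.4 and 144.5 CPM with GW3965, 147.5, 119.5 and 152.6 CPM with 1E5 and 152.7, 152.6 and 162.2 CPM with 3A4, again with overlap.

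BxPC-3 gave no call among the members with 1E5 or 3A4. With 1E5, 0 of 41 members and 0.00% of all 18042 genes were called in edgeR, and 1 member had an unadjusted p under 0.05. DESeq2 also called none of the members, and 9 of 33150 genes. With 3A4, edgeR called 0 of 41 against 0.0333% of all genes, and 5 members had an unadjusted p under 0.05. DESeq2 again called none of the members, although it called 342 of 16416 genes where edgeR called 6 of 18042. NFE2L1 stood at 208.7, 194.9 and 195.0 CPM with DMSO, 180.3, 160.8 and 142.5 CPM with GW3965, 220.4, 139.3 and 188.2 CPM with 1E5 and 226.2, 215.4 and 190.1 CPM with 3A4. The 95% interval of its log2 fold change with 1E5 ran from -0.46 to 0.21, which holds neither the value in MIA PaCa-2 nor that in PANC-1. POMP stood at 121.3, 122.5 and 141.5 CPM with DMSO, 128.9, 74.5 and 115.1 CPM with GW3965, 149.9, 125.5 and 143.2 CPM with 1E5 and 164.7, 142.3 and 196.4 CPM with 3A4. Its 3A4 libraries were all above its DMSO libraries (log2 fold change 0.39 ± 0.185, adjusted p = 0.419).

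Other BxPC-3 levels varied mainly between replicates. PSMB5 held 114.1, 84.1 and 116.8 CPM with DMSO, 76.3, 71.0 and 117.6 CPM with GW3965, 116.4, 75.0 and 110.1 CPM with 1E5 and 114.9, 86.2 and 135.3 CPM with 3A4, lowest in replicate 2 of every group. PSMC4 held 118.4, 81.9 and 100.2 CPM with DMSO, 86.5, 76.9 and 93.0 CPM with GW3965, 113.4, 76.0 and 96.6 CPM with 1E5 and 134.0, 104.3 and 129.3 CPM with 3A4, with the same low replicate. PSMA3 held 133.9, 107.6 and 122.5 CPM with DMSO, 106.1, 87.2 and 99.9 CPM with GW3965, 129.7, 122.9 and 142.1 CPM with 1E5 and 107.7, 112.3 and 139.6 CPM with 3A4. Its GW3965 libraries lay under its DMSO libraries without a call. For the lid, PSMD11 held 109.2, 92.1 and 116.3 CPM with DMSO, 115.0, 77.8 and 96.0 CPM with GW3965, 144.0, 94.3 and 102.1 CPM with 1E5 and 125.2, 108.0 and 116.9 CPM with 3A4. PSMD12 held 94.7, 88.9 and 105.8 CPM with DMSO, 102.0, 75.0 and 86.8 CPM with GW3965, 117.1, 87.5 and 110.1 CPM with 1E5 and 92.2, 93.1 and 104.5 CPM with 3A4. PSMD14 held 146.2, 114.5 and 131.2 CPM with DMSO, 113.7, 96.5 and 122.9 CPM with GW3965, 146.3, 122.3 and 143.8 CPM with 1E5 and 129.0, 120.4 and 155.7 CPM with 3A4. All these lid groups overlapped. Of the remaining activator and assembly genes, PSME4 held 114.5, 91.2 and 108.9 CPM with DMSO, 140.8, 108.9 and 97.6 CPM with GW3965, 111.8, 103.1 and 115.5 CPM with 1E5 and 143.8, 118.8 and 135.8 CPM with 3A4. PSMG1 held 53.7, 39.4 and 44.3 CPM with DMSO, 49.2, 36.2 and 39.6 CPM with GW3965, 51.9, 41.5 and 48.8 CPM with 1E5 and 46.6, 41.8 and 54.2 CPM with 3A4. PSMG2 held 44.3, 39.4 and 46.2 CPM with DMSO, 43.8, 31.3 and 36.6 CPM with GW3965, 39.5, 50.1 and 43.7 CPM with 1E5 and 38.2, 42.8 and 51.1 CPM with 3A4. Of these 3 genes only PSME4 had a group apart from DMSO, with 3A4 (log2 fold change 0.34 ± 0.143, adjusted p = 0.362).

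The response to 1E5 differed among the lines for 23 of the 41 members, by an F test of the ligand by line interaction in 1 fit of all libraries (38.5% of the 22132 genes tested). The smallest adjusted p values belonged to PSMB3 (4.06e-07), NFE2L1 (1.42e-05), PSMB7 (0.000102), PSMA2 (0.000175), PSMB6 (0.000636) and POMP (0.000754). These 6 were kept under every alternative, as were PSMA7, PSMD2 and PSME4. With GW3965 none of the 41 interactions was called (0.104% of all genes). With 3A4 the interactions of PSMB3 (0.0364) and PSME3 (0.0386) were called, against 5.89% of all genes, and each was kept in 4 of the 18 fits with a library left out.

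Fewer members were called with 3A4 than with 1E5, and both compounds were compared with the same DMSO libraries. In MIA PaCa-2, 4 rose and 4 fell with 3A4 against DMSO, where 7.30% of all genes rose and 6.45% fell, and the members' median was -0.01 against 0.03. POMP rose by 0.93 ± 0.220 (adjusted p = 0.0179), with all 3 of its 3A4 libraries above the DMSO range. PSMD12 stood at 101.1, 104.6 and 78.3 CPM with DMSO, 109.5, 100.4 and 82.5 CPM with GW3965, 152.2, 131.5 and 101.9 CPM with 1E5 and 134.2, 196.8 and 137.4 CPM with 3A4. It rose by 0.72 ± 0.197 with 3A4 (adjusted p = 0.032). PSME4 rose by 0.62 ± 0.167 (adjusted p = 0.0295), and PSMD14, at 246.2, 276.5 and 239.9 CPM with 3A4, rose by 0.48 ± 0.131 (adjusted p = 0.0308). PSMD11 held 164.0, 167.9 and 110.1 CPM with GW3965 and 185.6, 196.8 and 169.0 CPM with 3A4. Its 3A4 libraries lay above the DMSO libraries without a call (log2 fold change 0.24 ± 0.149, adjusted p = 0.306).

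PSME1 fell by 0.94 ± 0.132 with 3A4 in MIA PaCa-2 (adjusted p = 0.00182). It was the 1 call of the 8 kept under every alternative and with each single library left out. PSME2 (-0.62 ± 0.181, adjusted p = 0.0409), PSMB5 (-0.56 ± 0.131, adjusted p = 0.0174) and PSMB3 (-0.54 ± 0.157, adjusted p = 0.0399) fell too. PSMB5 held 179.0, 179.7 and 175.7 CPM with GW3965 and 151.7, 111.3 and 137.0 CPM with 3A4 there. PSMC4 held 168.0, 171.8 and 122.4 CPM with DMSO, 152.5, 158.1 and 112.4 CPM with GW3965, 143.8, 124.5 and 98.2 CPM with 1E5 and 231.3, 174.6 and 185.5 CPM with 3A4, and was not called against DMSO with any compound. PSMB3 and PSME2 kept their calls only without 3A4 replicate 1 (highest adjusted p 0.148 and 0.157). PSMD12 (highest adjusted p 0.138), PSMD14 (0.106) and PSME4 (0.103) lost theirs without any DMSO library or without 3A4 replicate 2, POMP (0.061) without any DMSO library, and PSMB5 (0.0613) without DMSO replicate 1 or 3 or 3A4 replicate 2. NFE2L1 was level with 3A4 in this line (log2 fold change -0.06, 95% interval -0.63 to 0.51).

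In PANC-1 most members had log2 fold changes above 0 with 3A4, and few were called. Log2 fold changes were above 0 for 36 of 41 members, with a median of 0.19 against 0.01 over all genes, and 9 members had an unadjusted p under 0.05. The members' median log2 difference of a DMSO library from the other 2 was 0.27 for replicate 1 and -0.27 for replicate 2. These offsets exceed the median of 0.19, and the members move together, so their signs are not separate evidence. The number called higher was 0 (3.53% of all genes) and the number called lower was 1 (3.84%). The 30 core and cap subunits other than PSMC4 held 5213, 4085 and 4669 CPM with DMSO and 5539, 4869 and 5294 CPM with 3A4, and the groups overlapped. Within each replicate number the sum with 3A4 was the higher, but the labels do not say whether same-numbered libraries were paired. PSMC4 had a log2 fold change of 0.52 ± 0.161 (adjusted p = 0.0725). PSME3 was the 1 member called by edgeR in the main fit, and DESeq2 called 4, adding PSMB7 (0.46, adjusted p = 0.0426), PSMB8 (0.73, adjusted p = 0.047) and PSMC4 (0.53, adjusted p = 0.025) as higher. With the replicate number as a block, edgeR also called PSMB7, PSMB8 and PSMC4 higher (adjusted p = 0.00898, 0.0125 and 0.0079).

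PSME3, the nuclear activator PA28 gamma, was the most variable member. The median over the 12 groups of its coefficient of variation was 34.3%, and the next member, PSMC5, had 16.7%. In PANC-1 it stood at 119.1, 101.8 and 123.3 CPM with DMSO, 50.7, 42.3 and 71.6 CPM with GW3965, 120.2, 66.5 and 98.4 CPM with 1E5 and 64.9, 57.1 and 52.1 CPM with 3A4. The fall with 3A4 (0.98 ± 0.225, adjusted p = 0.0248) lost its call with any of the 6 libraries left out (highest adjusted p 0.101), and the log2 fold change with GW3965, -1.06 ± 0.225, was not called (adjusted p = 0.258). In BxPC-3 it stood at 64.2, 60.0 and 61.9 CPM with DMSO, 144.6, 116.2 and 60.1 CPM with GW3965, 188.5, 113.7 and 56.8 CPM with 1E5 and 178.0, 151.5 and 72.7 CPM with 3A4. In MIA PaCa-2 the values were 81.3, 95.8 and 57.2 CPM with DMSO, 87.3, 180.3 and 60.2 CPM with GW3965, 194.1, 170.7 and 71.2 CPM with 1E5 and 88.2, 268.2 and 160.6 CPM with 3A4. Replicate 3 was the lowest of every ligand group of BxPC-3. The neighbouring gene BECN1, whose exons overlap PSME3, kept to 40.3 to 82.9 CPM over all libraries, while PSME3 spanned 42.3 to 268.2 CPM.

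The direct comparison of the compounds at the same dose and time set 3A4 above 1E5 for the core and cap subunits. In MIA PaCa-2, 17 members were higher and 2 lower with 3A4, against 17.2% and 15.1% of all genes, and all 17 were among the 31 subunits of the 26S particle, the core with its cap. All 31 had log2 fold changes above 0 there, with a median of 0.53 against -0.03 over all genes. PSMD2, at 670.5, 516.0 and 699.6 CPM with 3A4, was higher than with 1E5 by 1.31 ± 0.155 (adjusted p = 5.24e-05). PSMB3 was higher by 1.07 ± 0.158 (adjusted p = 0.000274), its 243.3, 171.3 and 197.4 CPM with 3A4 all above the 1E5 range. PSMA2, an alpha subunit, held 193.2, 224.1 and 259.1 CPM with DMSO, 130.7, 111.0 and 103.7 CPM with 1E5 and 216.0, 224.6 and 211.2 CPM with 3A4. It was higher with 3A4 by 0.92 ± 0.133 (adjusted p = 0.000244), while NFE2L1 was lower by 1.89 ± 0.269 (95% interval -2.47 to -1.31, adjusted p = 0.000206). For POMP and PSME4, which rose with both compounds, the differences were 0.04 (95% interval -0.43 to 0.50) and -0.00 (-0.36 to 0.35). For PSME1, which fell with both, it was -0.21 (-0.49 to 0.07).

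PANC-1 gave 12 members higher and 3 lower with 3A4 than with 1E5, against 18.5% and 18.8% of all genes. Of the 31 subunits, 30 had log2 fold changes above 0 (median 0.28, against -0.00 over all genes) and 11 were called. PSMD2, at 553.4, 459.7 and 470.5 CPM with 3A4, was higher by 0.85 ± 0.130 (adjusted p = 0.000466) and POMP by 0.70 ± 0.117 (adjusted p = 0.000791). PSMC2, an ATPase, held 141.3, 89.7 and 113.9 CPM with 1E5 and 193.8, 159.5 and 190.7 CPM with 3A4, and was higher by 0.66 ± 0.187 (adjusted p = 0.0167). NFE2L1 was lower with 3A4 by 0.88 ± 0.173 (adjusted p = 0.00215), PSME3 by 0.71 ± 0.224 (adjusted p = 0.0271) and PSMG2 by 0.37 ± 0.113 (adjusted p = 0.0236). BxPC-3 gave none (0.144% of all genes). No member there reached an unadjusted p under 0.05. DESeq2 also called no member, although it called 434 of 16416 genes where edgeR called 26 of 18042. The log2 differences of the 31 subunits in BxPC-3 lay between -0.18 and 0.36, with 95% bounds from -0.50 to 0.76. For NFE2L1 in BxPC-3 the difference was 0.21 (-0.13 to 0.54).

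**Figure D3:**
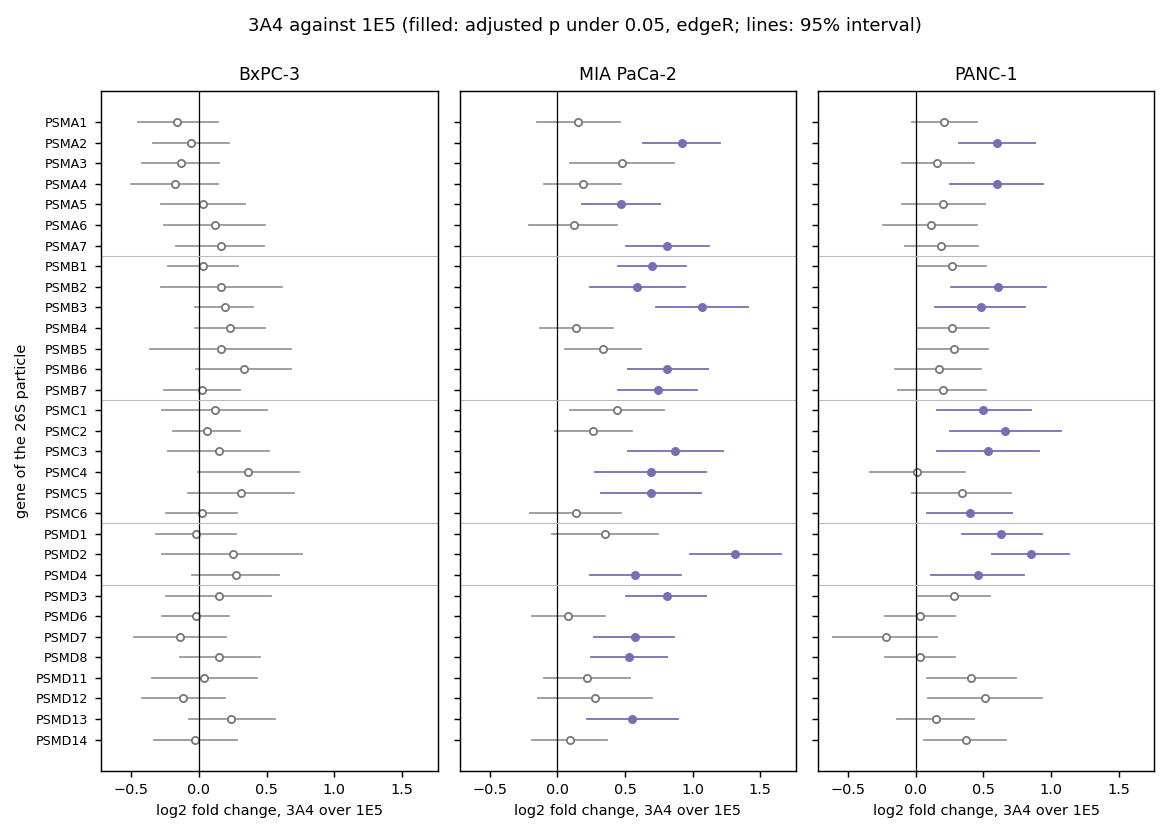
Log2 fold change of 3A4 over 1E5 with its 95% interval for the 31 genes of the 26S particle in each line, filled where edgeR's adjusted p was under 0.05. In MIA PaCa-2 all 31 points lie above 0 and 17 are filled, PANC-1 has 30 above 0 and 11 filled, and none is filled in BxPC-3.

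In the comparison of the compounds, 13 of the 19 calls in MIA PaCa-2 and 6 of the 15 in PANC-1 were kept under every alternative and with each library left out, PSMD2, PSMA2 and NFE2L1 in both lines. In MIA PaCa-2 the others were PSMA5 (lost without 1E5 replicate 3, highest adjusted p 0.0706), PSMB2 (without 1E5 replicate 2, 0.0666), PSMC4 (without 3A4 replicate 1 or 1E5 replicate 3, 0.066) and PSMD4 (without 3A4 replicate 1 or 1E5 replicate 2, 0.0677). PSMD13 was lost there without 3A4 replicate 1 or 1E5 replicate 2 or 3 (0.0691), and PSMB8 was kept in 1 of 6 such fits (0.102). In PANC-1 PSMA4 was lost without 3A4 replicate 3 (0.0524), PSMC2 without 3A4 replicate 1 or 3 (0.0575), and PSMB3 and PSMC1 without either of these or 1E5 replicate 3 (0.102 for both). PSMC3 (0.0923) and PSMD4 (0.117) were kept only without 1E5 replicate 1 and PSMC6 (0.153) only without 1E5 replicate 2. PSME3 (0.102) was lost without 1E5 replicate 1 or 3 or 3A4 replicate 2 or 3, and PSMG2 (0.0701) without 1E5 replicate 2 or any 3A4 library.

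The immunoproteasome genes followed another order. PSMB8, the interferon-inducible counterpart of PSMB5, stood in BxPC-3 at 87.4, 82.9 and 69.1 CPM with DMSO, 46.8, 56.6 and 55.2 CPM with GW3965, 73.9, 73.8 and 69.3 CPM with 1E5 and 71.8, 72.8 and 65.8 CPM with 3A4. The GW3965 libraries lay under all others, and PSMB8 fell by 0.59 ± 0.112 (adjusted p = 0.0256). It was the 1 member called lower with GW3965 in BxPC-3 (0.848% of all genes) and none was called higher (0.477%). The call was kept only without DMSO replicate 3 and was lost without any of the other 5 libraries (highest adjusted p 0.121) and in a fit of the compared groups alone (0.124). PSMB10, the counterpart of PSMB7, held 27.3, 33.0 and 31.2 CPM with DMSO, 25.0, 21.5 and 24.8 CPM with GW3965, 29.3, 31.4 and 32.5 CPM with 1E5 and 26.1, 29.7 and 28.4 CPM with 3A4 in that line. Its GW3965 libraries were apart from DMSO without a call (-0.36 ± 0.110, adjusted p = 0.182). PSME1 held 147.8, 132.5 and 140.1 CPM with DMSO, 113.2, 106.7 and 110.9 CPM with GW3965, 158.7, 134.0 and 146.0 CPM with 1E5 and 141.5, 126.4 and 149.2 CPM with 3A4, and PSME2 held 194.7, 159.0 and 157.0 CPM, 141.0, 109.3 and 116.1 CPM, 177.8, 155.0 and 177.3 CPM, and 178.9, 172.1 and 200.3 CPM in the same order. Both had GW3965 groups under DMSO without a call (-0.35 ± 0.0988, adjusted p = 0.151, and -0.48 ± 0.127, adjusted p = 0.116), while DESeq2 called both lower (adjusted p = 0.03 and 0.021). Over all 41 members, 37 log2 fold changes with GW3965 in BxPC-3 were below 0, with a median of -0.20 against -0.00 over all genes. Single libraries shifted the members by as much, with median log2 differences from the other 2 of 0.21 and -0.25 in DMSO replicates 1 and 2. That of GW3965 replicate 2 was -0.21, so the count of 37 is not separate evidence of a fall.

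Of 10 genes of interferon-linked antigen processing, 4 fell with GW3965 in BxPC-3 and none rose, against 0.848% and 0.477% of all genes. Among them were PSMB9, the counterpart of PSMB6 (-1.04 ± 0.196, adjusted p = 0.0261), the peptide transporter subunit TAP1 (-0.83 ± 0.148, adjusted p = 0.0214) and IRF1 (-0.69 ± 0.129, adjusted p = 0.0244). Single calls outside the 41 members were not followed through the alternatives or with libraries left out. Over all genes, calls for GW3965 in BxPC-3 went from 239 to between 68 and 151 with 1 library left out. They went to 90 with the compared groups alone. Exons of PSMB9 also overlap those of PSMB8. With 1E5, 3 of the 10 rose and none fell in MIA PaCa-2 (23.6% and 23.4% of all genes). Among the risers was the peptide trimming enzyme ERAP1 (1.59 ± 0.175, adjusted p = 1.86e-05). In PANC-1 1 rose (IRF1, 1.20 ± 0.292, adjusted p = 0.00704) and 3 fell (19.7% and 19.3% of all genes). These 1E5 counts are too small to set apart from the shares over all genes. With 3A4, 1 rose and 3 fell in MIA PaCa-2 (7.30% and 6.45% of all genes). In PANC-1 1 rose and none fell with 3A4 (3.53% and 3.84% of all genes). The riser in both was the transporter subunit TAP2 (0.71 ± 0.158, adjusted p = 0.0138, and 0.71 ± 0.167, adjusted p = 0.0285). With GW3965 in MIA PaCa-2, edgeR called 0 of 41 members (0.523% of all genes, 1 unadjusted p under 0.05), and DESeq2 called PSME1 lower (-0.54, adjusted p = 0.0113). In PANC-1 edgeR also called 0 of 41 (0.0485% of all genes, 2 unadjusted p under 0.05), and DESeq2 called PSME3 lower (-1.07, adjusted p = 0.00405).

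PSMB8 was scarce in MIA PaCa-2, at 10.8, 6.95 and 9.57 CPM with DMSO, 9.65, 6.91 and 10.4 CPM with GW3965, 13.8, 11.3 and 12.2 CPM with 1E5 and 9.73, 4.11 and 5.89 CPM with 3A4. It was lower with 3A4 than with 1E5 by 0.94 ± 0.305 (adjusted p = 0.0315). PSMB10 held 17.2, 14.8 and 25.5 CPM with DMSO, 12.6, 10.1 and 16.5 CPM with GW3965, 12.5, 12.1 and 14.2 CPM with 1E5 and 20.3, 10.6 and 16.2 CPM with 3A4 there, with no call. In PANC-1 PSMB8 stood at 45.1, 23.8 and 25.5 CPM with DMSO, 42.8, 28.0 and 28.4 CPM with GW3965, 53.7, 46.7 and 44.5 CPM with 1E5 and 61.8, 51.4 and 42.1 CPM with 3A4. DMSO replicate 1 reached the ligand groups, and the log2 fold changes of 0.62 ± 0.253 with 1E5 (adjusted p = 0.0727) and 0.72 ± 0.254 with 3A4 (adjusted p = 0.106) were not called. PSMB10 there stood at 17.4, 8.96 and 15.0 CPM with DMSO, 13.5, 12.1 and 9.71 CPM with GW3965, 25.4, 21.9 and 18.1 CPM with 1E5 and 17.1, 14.6 and 18.3 CPM with 3A4. It rose by 0.66 ± 0.234 with 1E5 (adjusted p = 0.0428), a call lost without 1E5 replicate 1 or 2 or DMSO replicate 2 or 3 (highest adjusted p 0.139). The PA28 genes of PANC-1 did not follow. PSME1 held 96.3, 62.8 and 63.2 CPM with DMSO, 83.2, 66.6 and 61.5 CPM with GW3965, 66.3, 93.3 and 59.0 CPM with 1E5 and 74.8, 61.2 and 46.9 CPM with 3A4. PSME2 held 108.1, 60.1 and 75.2 CPM with DMSO, 102.4, 69.9 and 82.7 CPM with GW3965, 83.3, 102.7 and 64.3 CPM with 1E5 and 92.4, 79.4 and 72.3 CPM with 3A4. Both overlapped DMSO in every group.

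Per kilobase of exon, PSMB8 amounted to 46.0% ± 11.6 of PSMB5 in BxPC-3 with DMSO (SD of 3 libraries), to 17.9% ± 5.58 in PANC-1 and to 2.73% ± 0.560 in MIA PaCa-2. With 1E5 the PANC-1 libraries stood at 37.0%, 33.5% and 34.2%, above the 24.4%, 15.1% and 14.3% with DMSO, and the MIA PaCa-2 libraries at 6.93%, 6.76% and 7.12%, above 3.24%, 2.13% and 2.81%. With 3A4 the PANC-1 libraries stood at 37.9%, 34.9% and 22.0%, and 1 of them lay within the DMSO range. PSMB5 fell with 1E5 in both lines, and PSMB8 was not called against DMSO in either. PSMB10 amounted to 16.4% ± 3.99 of PSMB7 in BxPC-3, to 11.1% ± 2.10 in PANC-1 and to 4.43% ± 1.27 in MIA PaCa-2. With 1E5 this ratio overlapped DMSO, at 15.3%, 17.1% and 12.6% against 12.9%, 8.78% and 11.7% in PANC-1 and at 4.85%, 5.28% and 6.70% against 3.94%, 3.47% and 5.86% in MIA PaCa-2. In the annotation used, exons of PSMB8 overlap PSMB8-AS1 and PSMB9 on the other strand, and 34.8% of the exon bases of PSMB10 are shared with another gene on the same strand, so both are uncertain where reads were split.

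**Figure D4:**
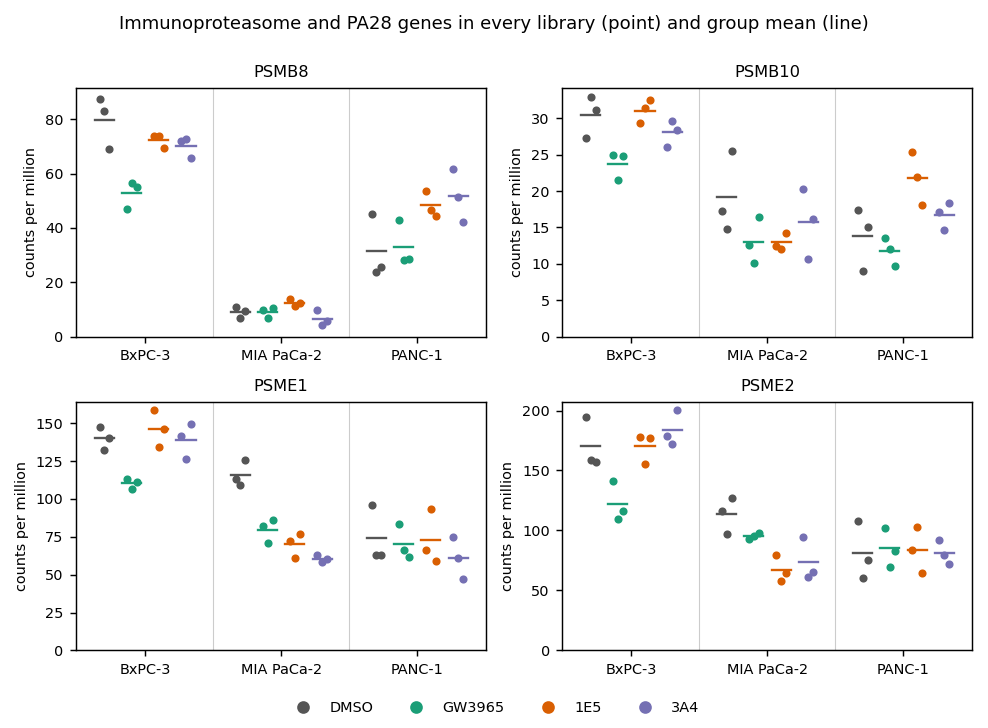
CPM of PSMB8, PSMB10, PSME1 and PSME2 in every library (points) with the group mean (line), by line and treatment, scaled within each line. In BxPC-3 the GW3965 libraries of PSMB8 lie at 46.8 to 56.6 CPM under all other groups, and in MIA PaCa-2 the ligand libraries of PSME1 lie at 58.4 to 85.9 CPM under the DMSO range.

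Without ligand the 3 lines differed most in PSMC4. Scaled over all 36 libraries, this ATPase gene (chr19:39971005-39981441, GRCh38) stood at 126.2, 87.7 and 108.1 CPM in the BxPC-3 DMSO libraries, 159.0, 167.2 and 111.8 CPM in MIA PaCa-2 and 1955, 1494 and 1693 CPM in PANC-1. It was 16.0-fold higher in PANC-1 than in BxPC-3 (log2 fold change of BxPC-3 over PANC-1 -4.00 ± 0.210, adjusted p = 2.15e-15) and 11.7-fold higher than in MIA PaCa-2 (adjusted p = 2.29e-14). Per kilobase of exon PSMC4 led the members in PANC-1 at 718.0 ± 96.7 CPM, against 136.0 ± 17.2 for PSMA7, the next. PSMA7 led in BxPC-3 at 227.3 ± 32.2 CPM per kilobase, and PSMA7 and PSMB3 stood level in MIA PaCa-2 at 236.8 ± 25.2 and 236.8 ± 18.2. The subunits form the particle in equal numbers. PSMD8, a lid gene on the same arm (chr19:38374536-38383824), starts just outside the 1500 kb window around PSMC4 that is used below. It was at 80.1 ± 9.70 CPM per kilobase in PANC-1, between its 94.3 ± 4.09 in MIA PaCa-2 and 64.4 ± 8.76 in BxPC-3.

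High transcript levels in PANC-1 were shared by the neighbours of PSMC4. Within 1500 kb of its start, a window chosen after its values were seen, 59 protein-coding genes reached 5 CPM in the DMSO libraries of a line. Of these, 32 were higher in PANC-1 than in both other lines, 21 of them at least 4-fold (log2 of 2), against 444 of 12260 protein-coding genes (3.62%). PSMC4 itself is counted among the 59, the 32 and the 21. The 21 lay between -1241 kb and 259 kb from the start of PSMC4. PAF1, a transcription elongation gene, held 1288 CPM in PANC-1 against 95.4 in BxPC-3 and 84.8 in MIA PaCa-2, and SUPT5H, another, held 1772 against 183.0 and 176.5. The kinase gene AKT2, at 259 kb, held 1411 CPM against 114.9 and 168.8. From C19orf47 at 349 kb onward no gene of the window was 4-fold higher, and C19orf47 itself held 10.1 CPM against 12.4 and 15.1. PANC-1 is known for extra copies of the AKT2 region. Copy number was not measured here, and its part in these levels was not tested.

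**Figure D5:**
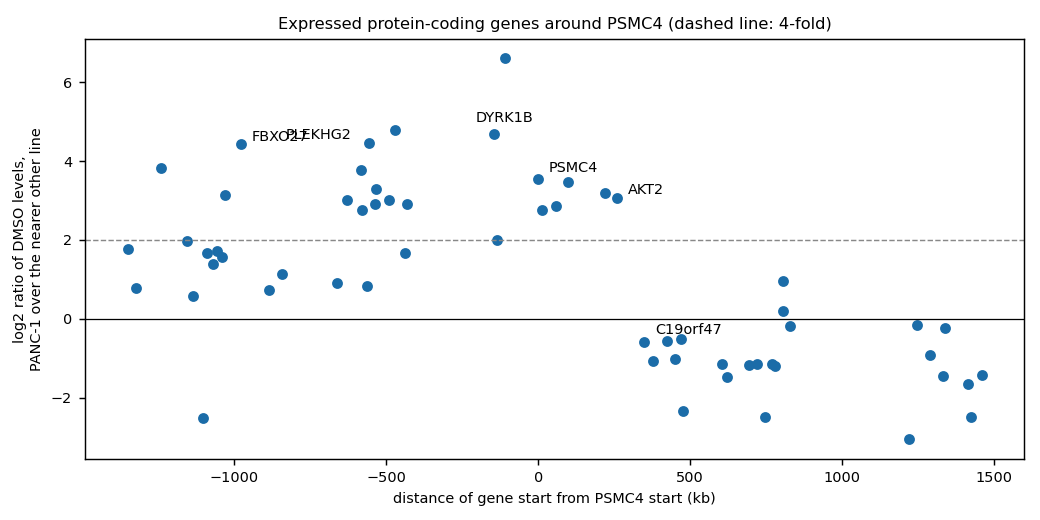
Log2 ratio of mean DMSO levels in PANC-1 over the nearer of the other lines (y axis), against the distance of gene starts from that of PSMC4 in kb (x axis). Points are the 59 expressed protein-coding genes of the window, PSMC4 included. PSMC4 and 20 neighbours lie on or above the dashed 4-fold line, all between -1241 kb and 259 kb, and none does so from 349 kb onward.

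The other members showed smaller differences between lines. BxPC-3 had 16 members higher and 10 lower than PANC-1 (27.1% and 25.5% of all 22132 genes), and 9 higher and 11 lower than MIA PaCa-2 (32.7% and 24.6%). MIA PaCa-2 had 19 higher and 8 lower than PANC-1 (21.7% and 29.5%), with medians of 0.33 for the members and -0.12 for all genes. Of the 7 beta ring genes, 5 were called higher in MIA PaCa-2 than in both other lines (PSMB3, PSMB4, PSMB5, PSMB6 and PSMB7), and PSMB1 and PSMB2 were not called in any pair of lines. PSMB7 stood at 398.3, 400.9 and 383.2 CPM there, 230.2, 169.3 and 193.5 CPM in BxPC-3 and 125.1, 95.4 and 119.1 CPM in PANC-1, and PSMB3 at 282.1, 256.3 and 299.0 CPM, 90.2, 94.0 and 98.9 CPM, and 106.1, 78.7 and 78.1 CPM in the same order. MIA PaCa-2 stood clear of both other lines for each, with PSMB3 higher by 1.67 ± 0.133 than in PANC-1 (adjusted p = 1.43e-11). For the cap, PSMD4 held 338.5, 353.3 and 307.2 CPM in MIA PaCa-2, 135.7, 98.8 and 112.0 CPM in BxPC-3 and 195.0, 136.1 and 161.7 CPM in PANC-1. PSMD3 held 332.8, 285.4 and 265.9 CPM, 143.6, 112.2 and 121.5 CPM, and 230.0, 180.7 and 203.9 CPM in that order. PSMD7 was instead low in PANC-1 alone, at 94.1, 82.7 and 94.5 CPM against 225.3, 225.1 and 221.7 CPM in MIA PaCa-2 and 224.8, 172.7 and 176.3 CPM in BxPC-3. PSMD11 was highest in PANC-1, at 237.7, 158.6 and 201.8 CPM against 147.5, 152.2 and 142.2 CPM in MIA PaCa-2 and 116.4, 98.6 and 125.4 CPM in BxPC-3.

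NFE2L1, POMP, PSME4 and PSMB8 were called lower in MIA PaCa-2 than in both other lines, and PSMB10, PSME1 and PSME2 were called higher in BxPC-3 than in both others. The assembly factors PSMG1 (0.56 ± 0.207, adjusted p = 0.0249) and PSMG2 (0.73 ± 0.143, adjusted p = 7.85e-05), as well as PSME1 and PSME2, were higher in MIA PaCa-2 than in PANC-1. In the DMSO libraries scaled together, POMP stood at 129.2, 131.1 and 152.6 CPM in BxPC-3, 110.1, 88.7 and 91.5 CPM in PANC-1 and 52.8, 59.0 and 53.2 CPM in MIA PaCa-2, lowest in MIA PaCa-2. NFE2L1 stood at 222.3, 208.5 and 210.3 CPM in BxPC-3, 361.5, 268.6 and 306.1 CPM in PANC-1 and 101.9, 101.9 and 161.8 CPM in MIA PaCa-2. The order PANC-1, BxPC-3, MIA PaCa-2 held for NFE2L1 without overlap, and MIA PaCa-2 was lower than PANC-1 by 1.36 ± 0.213 (adjusted p = 3.5e-06). The log2 fold change of BxPC-3 over PANC-1 was -0.55 ± 0.208 (adjusted p = 0.0284). That call was kept in 1 of 6 fits with a library left out (highest adjusted p 0.127). PSMB8 stood at 93.0, 88.8 and 74.6 CPM in BxPC-3, 43.1, 23.1 and 24.4 CPM in PANC-1 and 10.2, 6.76 and 8.74 CPM in MIA PaCa-2, so BxPC-3 was higher than MIA PaCa-2 by 3.33 ± 0.258 (adjusted p = 5.42e-12). PSMB10 (29.0, 35.3 and 33.7 CPM) and PSME2 (207.4, 170.1 and 169.3 CPM) were also highest in BxPC-3, against 16.3, 14.4 and 23.3 CPM and 110.2, 94.4 and 115.7 CPM in MIA PaCa-2 and 16.7, 8.68 and 14.4 CPM and 103.5, 58.2 and 72.2 CPM in PANC-1. With each library left out and under every alternative, 18 of 26 calls were kept for BxPC-3 against PANC-1, 18 of 20 for BxPC-3 against MIA PaCa-2 and 20 of 27 for MIA PaCa-2 against PANC-1. PSMC4 in PANC-1, PSMB8 in all pairs and PSMB3 and PSMB7 in MIA PaCa-2 were among those kept.

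Counts of other gene lists are read against the shares of all genes that rose and fell, which were 23.6% and 23.4% with 1E5 in MIA PaCa-2, 19.7% and 19.3% with 1E5 in PANC-1, 7.30% and 6.45% with 3A4 in MIA PaCa-2 and 3.53% and 3.84% with 3A4 in PANC-1. Beside the members, 14 of 16 other proteasome genes passed the filter. With 1E5 in MIA PaCa-2, 2 rose and 4 fell. ECPAS, a proteasome adaptor, rose by 1.15 ± 0.146 (adjusted p = 5.02e-05) and AKIRIN2, which carries proteasomes into the nucleus, by 0.81 ± 0.166 (adjusted p = 0.00163), while the small lid subunit SEM1 fell by 1.40 ± 0.146 (adjusted p = 1.2e-05). In PANC-1 4 rose and none fell, led by the base chaperone PAAF1 (1.01 ± 0.114, adjusted p = 5.27e-05) and AKIRIN2 (0.84 ± 0.129, adjusted p = 0.000411). With 3A4 AKIRIN2 rose again, by 0.83 ± 0.167 in MIA PaCa-2 (adjusted p = 0.00947) and 0.66 ± 0.128 in PANC-1 (adjusted p = 0.0124). There 2 genes of the list rose and 1 fell in MIA PaCa-2, and 2 rose and none fell in PANC-1, the second being the ubiquitin receptor ADRM1 (0.51 ± 0.122, adjusted p = 0.0307).

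Of 7 genes that process or partner NFE2L1, 2 rose and 2 fell with 1E5 in each of MIA PaCa-2 and PANC-1, counts too small to set apart from the shares over all genes. The partner MAFG rose by 2.64 ± 0.397 in MIA PaCa-2 (adjusted p = 0.000178) and 1.25 ± 0.151 in PANC-1 (adjusted p = 8.64e-05), and NGLY1, which removes sugars from NFE2L1, by 0.70 ± 0.155 (adjusted p = 0.00259) and 0.72 ± 0.169 (adjusted p = 0.00588). The related factor NFE2L3 fell by 1.08 ± 0.260 (adjusted p = 0.00444) and 0.87 ± 0.194 (adjusted p = 0.0043). MAFG rose with 3A4 in MIA PaCa-2 as well (1.68 ± 0.387, adjusted p = 0.016), the 1 call of that list there, and PANC-1 had none.

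Ubiquitin supply and delivery was divided. Of 15 genes, 5 rose and 3 fell with 1E5 in MIA PaCa-2, and 4 rose and 3 fell in PANC-1, near the shares over all genes. SQSTM1, the autophagy receptor for ubiquitinated cargo, rose by 2.33 ± 0.225 (adjusted p = 7.18e-06) and 1.65 ± 0.145 (adjusted p = 9.99e-06). VCP, the segregase that hands substrates to the proteasome, fell by 0.77 ± 0.155 (adjusted p = 0.00134) and 0.85 ± 0.138 (adjusted p = 0.000612) in the same lines. UBA6, an activating enzyme, rose by 1.26 ± 0.181 in MIA PaCa-2 (adjusted p = 0.000124). With 3A4, 1 of the 15 rose and none fell in MIA PaCa-2, and 1 fell and none rose in PANC-1.

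Of 8 genes induced by protein damage and related stress, 4 rose and 3 fell with 1E5 in MIA PaCa-2, and 4 rose and 2 fell in PANC-1. HMOX1, which breaks down haem, rose by 3.87 ± 0.221 (adjusted p = 3.37e-07) and 3.69 ± 0.197 (adjusted p = 4.62e-07), and DDIT3, a stress transcription factor, by 3.19 ± 0.269 (adjusted p = 2.79e-06) and 2.41 ± 0.348 (adjusted p = 0.000282). The chaperone gene HSPA1A went down with 1E5 in MIA PaCa-2 (-0.97 ± 0.233, adjusted p = 0.00429) and up with 3A4 (0.85 ± 0.232, adjusted p = 0.0313). With 3A4, 7 of the 8 rose and none fell in MIA PaCa-2, and 2 rose and none fell in PANC-1. In BxPC-3 none of these 4 lists, nor the interferon-linked one, had a call with 1E5 or 3A4. Among the epithelial markers, KRT19 fell with 1E5 by 2.54 ± 0.271 in MIA PaCa-2 (adjusted p = 1.46e-05) and 2.37 ± 0.221 in PANC-1 (adjusted p = 1.45e-05), and the part of such shifts in the members' values was not tested.

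The 10 members with the antioxidant response element core in their promoters did not share a direction. With 1E5 in MIA PaCa-2, 1 of them rose (PSME4), 6 fell (PSMA4, PSMB3, PSMC5, PSMD3, PSME1 and PSME2) and 3 were not called, with a median of -0.52. Of the 26 members whose entries lacked the core, 3 rose and 9 fell, with a median of -0.34. Over all genes 23.6% rose and 23.4% fell. The falls of PSMA4 and PSMC5 lost their calls with some library left out. PSMD12, 1 of the 3 not called, was called higher by DESeq2 (0.52, adjusted p = 0.0351). It was also called higher by edgeR with the replicate number as a block (0.44, adjusted p = 0.0311). PSMD12 and PSME4, shown above, rose with 3A4 in MIA PaCa-2, where PSMB3 fell.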

How the data were processed

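Total RNA (500 ng per library, QIAseq stranded kit, per the labels' protocols) was sequenced in 36 libraries of 3 lines. The authors deposited 1 table of raw read counts per gene. The submitters' processing notes name Trim Galore 0.4.4, HISAT2 2.0.2, SAMtools 1.3, StringTie 1.3.1c and GRCh38. The annotation and strand setting of the counting were not given in the sources used here. Of 58658 lines, 415 named no gene (at most 0.00396% of counts of a library) and were left out, leaving 58243 genes. Gene positions came from GENCODE 29, and promoter sequences from RefSeq (GRCh38.p14).

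Libraries were grouped by their labels. Within each line, genes kept by edgeR's filterByExpr were fitted with edgeR 4.0.16 in R 4.3.3 (TMM scaling, quasi-likelihood F test, all 4 treatments sharing 1 estimate of spread), with Benjamini-Hochberg adjustment over all genes tested and a threshold of 0.05. Lines and interactions were tested in 1 fit of the 36 libraries. The fit was checked on simulated data. Totals of 2701393 to 26026684 counts limit precision most in MIA PaCa-2. Alternatives were DESeq2 1.42.0, RLE scaling, no filter, thinned counts, the compared groups alone, a replicate block and each library left out.

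The members and gene lists were chosen with earlier results of these data known. All members may be named. Values in every library are given for a fixed set of regulators, activators and subunits and for the 3 highest and 3 lowest called members of each comparison, and at most 4 called genes are named from each of the other lists. Values of a few genes of these other lists are not reported here.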

Additional observations from a re-analysis of the deposited data

Results flagged for a closer look

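For 25 results the response to a ligand differed among the 3 lines by edgeR's test of the ligand by line interaction in 1 fit of all libraries, adjusted over all genes. For 1E5 the adjusted p values in the core particle were 0.000175 for PSMA2, 0.034 for PSMA4, 0.00203 for PSMA7, 0.0122 for PSMB1, 4.06e-07 for PSMB3, 0.0469 for PSMB5, 0.000636 for PSMB6 and 0.000102 for PSMB7. In the base of the cap they were 0.0148 for PSMC3, 0.0485 for PSMC4, 0.0201 for PSMD1, 0.00583 for PSMD2 and 0.0161 for PSMD4. In the lid they were 0.0096 for PSMD3, 0.00582 for PSMD8, 0.0476 for PSMD12, 0.0367 for PSMD13 and 0.0289 for PSMD14. Outside the 26S particle they were 0.0148 for PSMB10, 0.0318 for PSME1, 0.00654 for PSME4, 0.000754 for POMP and 1.42e-05 for NFE2L1. For 3A4 they were 0.0364 for PSMB3 and 0.0386 for PSME3. Of the 18 fits with a library left out, PSMB5 kept its 1E5 call in 2, PSMD13 in 4, PSMC4 and PSME1 in 6, PSMD12 in 8 and PSMA4 in 9.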

How the results depend on the processing

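No call reversed. RLE scaling and thinning moved no count of called members by over 1.5 times. For GW3965 DESeq2 called 3 members in BxPC-3 (1 in the edgeR fit) and 1 in each of PANC-1 and MIA PaCa-2 (0 in each), and it called 4 for 3A4 in PANC-1 (1) and 5 interactions with 3A4 (2). Without the filter on low counts, 5 were called for 3A4 in MIA PaCa-2 (8), 13 interactions with 1E5 (23) and 1 with 3A4. With the compared groups alone, 0 were called for GW3965 in BxPC-3, 3 for 3A4 in MIA PaCa-2, 3 for 1E5 in PANC-1 (10) and 2 for 3A4 in PANC-1. With each library left out in turn, counts ranged from 0 to 1 for GW3965 in BxPC-3, 20 to 24 for 1E5, 1 to 8 for 3A4 and 15 to 21 for 3A4 against 1E5 in MIA PaCa-2. In PANC-1 they ranged from 4 to 10 for 1E5, 0 to 2 for 3A4 and 6 to 18 for 3A4 against 1E5. Interactions ranged from 15 to 21 for 1E5 and 0 to 5 for 3A4. Line comparisons ranged from 20 to 24 (BxPC-3 against PANC-1), 19 to 21 (BxPC-3 against MIA PaCa-2) and 23 to 26 (MIA PaCa-2 against PANC-1), and the other counts stayed at 0. The cause was not tested.

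The labels do not say whether same-numbered libraries were paired, and the main fit did not pair them. Their deviations correlated weakly, by 0.02 to 0.23 in BxPC-3, -0.02 to 0.16 in PANC-1 and -0.06 to 0.20 in MIA PaCa-2. Yet a library correlated best with its own number, out of 3, in 16, 15 and 13 of 18 cases, in that order. Whether the main fit leaves out a pairing was not settled. With such a block, calls over all genes went from 239 to 478 for GW3965 and from 6 to 275 for 3A4 in BxPC-3. They went from 85 to 64 for GW3965 in MIA PaCa-2. With the replicate number as a block, 3 members were called for GW3965 in BxPC-3, 4 for 3A4 in PANC-1 and 8 interactions with 3A4, and 25 for 1E5 in MIA PaCa-2, 14 for 1E5 in PANC-1 and 20 for 3A4 against 1E5 in PANC-1. Depth was lowest in MIA PaCa-2, where thinning to 2701393 counts ended 3 calls, those of PSMB3 and PSME2 with 3A4 and of PSMB8 in 3A4 against 1E5.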
